A study of Mus musculus with 4 samples.

Results

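Gene deserts are long stretches of the genome without a protein-coding gene, and the regions described here are the open-chromatin regions of cervical motor neurons that lie inside them. Peak intervals of 4 ATAC-seq libraries that shared at least 1 bp were merged into union regions, and a region was kept when its midpoint lay over 100 kb from every protein-coding gene body of mm10. This left 33754 of 199576 union regions, 16.9% of the series, with a median distance of 241 kb to the nearest gene and a largest distance of 2249 kb. At the limit of the rule, 212 regions lay between 100 and 101 kb from a gene and were kept, and 213 lay between 99 and 100 kb and were not. ATAC-seq uses the transposase Tn5 to cut and tag accessible DNA, so that a peak marks chromatin open to the enzyme.

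The cells were GFP-positive motor neurons from the cervical region of mouse embryos at embryonic day 12.5, sorted from a ChAT::GFP transgenic reporter line in which GFP follows choline acetyltransferase, the enzyme that makes acetylcholine. All 4 libraries carried this reporter. There were 2 libraries labelled control and 2 from Hoxa5-deficient littermates, called mutants here. The labels give neither the Hoxa5 allele nor the number of embryos in a library, so the p-values below measure the spread between these libraries, which may be partly technical. The sort also keeps any other cholinergic cell that carries GFP.

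Open regions far from genes are often enhancers, the stretches of DNA that bind transcription factors and loop to a distant promoter. Deserts next to developmental regulators, such as those around Sox2, Isl1 or Zeb2, are known for holding many such elements, while other deserts are poor in them. Hox proteins, including Hoxa5, give spinal motor neurons their position along the body axis and bind DNA through a homeodomain, whose common core site is TAATTA, often together with Pbx and Meis cofactors. Deserts also hold genes for long noncoding RNAs (lncRNAs) and microRNAs, whose starts and hairpins give fixed points within them.

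A region present in both mutants and in neither control is called mutant-only, the reverse is control-only, and a region in exactly 1 library of each genotype is called crossed. Of the lncRNA genes with a RefSeq start window (250 bases before the start to 50 after it, build GRCm38.p6), 1740 started over 100 kb from a protein-coding gene, and 21.2% of these windows overlapped a region, against 33.7% of 7793 lncRNA windows elsewhere and 65.4% of 17492 protein-coding windows. Where a gene had several windows, the one whose region was found in most libraries was taken. Among the desert lncRNA starts, 206 had a region in all 4 libraries, 28 a mutant-only region and 12 a control-only region. Over all 27025 start windows, 13117 had a region in all 4 libraries, 134 a mutant-only and 98 a control-only region. Mutant-only regions made up 10.3% of all union regions of the series and control-only regions 3.42%.

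The strongest 3 mutant-only starts, ranked by the lower of the 2 mutant percentiles, are shown, each of which holds the homeodomain core. Sequences are RefSeq's, 5′ to 3′ on the gene's strand, and capitals mark every match to 5 motifs on both strands. The homeodomain core was searched as TAATTA, and a Hox-Pbx site, which can overlap it, as TGATTNAT. An E-box was searched as CAGCTG. An Sp/KLF box was searched as GGGCGG. The CCAAT box was searched by the letters of its name.
Gm35308: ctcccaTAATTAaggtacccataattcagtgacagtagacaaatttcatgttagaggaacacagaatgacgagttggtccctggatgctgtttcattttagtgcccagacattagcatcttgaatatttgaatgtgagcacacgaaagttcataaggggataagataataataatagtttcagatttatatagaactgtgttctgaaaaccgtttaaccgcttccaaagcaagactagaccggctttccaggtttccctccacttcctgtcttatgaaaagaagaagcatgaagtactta
Gm33809: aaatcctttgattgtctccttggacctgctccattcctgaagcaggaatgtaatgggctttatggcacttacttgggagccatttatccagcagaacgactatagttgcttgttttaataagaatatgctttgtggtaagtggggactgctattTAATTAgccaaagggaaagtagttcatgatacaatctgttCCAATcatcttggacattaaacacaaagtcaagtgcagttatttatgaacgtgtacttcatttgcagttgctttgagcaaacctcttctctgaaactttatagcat
Gm40430: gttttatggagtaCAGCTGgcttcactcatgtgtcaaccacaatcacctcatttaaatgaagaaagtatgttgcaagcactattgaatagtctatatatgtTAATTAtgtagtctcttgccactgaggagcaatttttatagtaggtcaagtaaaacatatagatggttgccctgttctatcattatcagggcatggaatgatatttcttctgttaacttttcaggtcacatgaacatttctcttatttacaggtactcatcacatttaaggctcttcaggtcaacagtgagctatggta

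Gm35308 (chr14:104151127-104151426, plus strand) starts 307 kb from the nearest gene, in the desert between Ednrb and Pou4f1, a sensory neuron transcription factor. Its region had a fold enrichment over background of 6.19 and 5.10 in the mutants and no peak in either control. Gm33809 (chr3:143645585-143645884, plus strand) starts 543 kb from a gene in the desert next to Lmo4, a LIM-only cofactor expressed in motor neurons. Its region had a fold of 4.89 and 7.09 in the mutants. Gm40430 (chr12:59659747-59660046, plus strand) lies in the desert between Fbxo33 and Gm32936, with a fold of 4.40 and 4.53 in the mutants.

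TAATTA was present in 35.7% of the 28 mutant-only desert starts, in 13.1% of the 206 desert starts open in all 4 libraries, in 8.10% of the 1371 desert starts with no region and in 5.30% of all 27025 start windows. The median GC content of these 4 sets was 43%, 49%, 44.3% and 53%, so the letters of the windows differed as well. TGATTNAT was in none of the 28 mutant-only starts and in 6.31% of those open in all 4 libraries. GGGCGG was in 7.14% of the mutant-only desert starts, in 13.1% of those open in all 4 libraries and in 47.5% of protein-coding starts. The share with TAATTA among the 12 control-only desert starts is not given. Of the control-only starts looked at, Gm31727 holds TAATTA, and Gm47708 and 1110015O18Rik do not. These shares therefore do not show that the core is particular to mutant-only starts. A match describes the letters and is not evidence of binding, and the 28 windows were few.

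The next sequences show a control-only start for comparison, Gm47708, whose region was among the 6 strongest control-only desert regions, a control-only start that also holds TAATTA and the Hox-Pbx letters, Gm31727, and the desert lncRNA start with the strongest region of all 4 libraries, Gm26901.
Gm47708: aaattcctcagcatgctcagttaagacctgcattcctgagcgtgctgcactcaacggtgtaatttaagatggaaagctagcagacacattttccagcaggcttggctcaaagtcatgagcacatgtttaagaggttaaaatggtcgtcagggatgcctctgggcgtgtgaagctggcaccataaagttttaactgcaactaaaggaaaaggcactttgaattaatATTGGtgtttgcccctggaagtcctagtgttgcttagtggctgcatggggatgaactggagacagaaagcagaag
Gm31727: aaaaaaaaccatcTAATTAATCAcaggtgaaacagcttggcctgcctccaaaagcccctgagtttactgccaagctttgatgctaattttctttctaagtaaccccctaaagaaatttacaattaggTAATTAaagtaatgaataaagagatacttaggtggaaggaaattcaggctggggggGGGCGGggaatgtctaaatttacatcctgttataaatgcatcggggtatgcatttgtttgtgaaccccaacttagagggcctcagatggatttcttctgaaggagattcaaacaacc
Gm26901: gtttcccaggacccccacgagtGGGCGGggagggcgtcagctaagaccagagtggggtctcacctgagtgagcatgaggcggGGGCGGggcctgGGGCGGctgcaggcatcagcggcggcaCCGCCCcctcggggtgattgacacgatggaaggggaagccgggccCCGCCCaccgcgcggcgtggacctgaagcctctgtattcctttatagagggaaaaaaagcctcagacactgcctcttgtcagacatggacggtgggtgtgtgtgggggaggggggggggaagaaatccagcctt

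Gm47708 (chr10:95730076-95730375, plus strand) starts in the desert between Nudt4 and Eea1, and its region had a fold of 7.46 and 7.43 in the controls. The region at Gm31727 (chr8:26266628-26266927, plus strand) had a fold of 4.45 and 3.97 in the controls. Gm26901 (chr1:7398047-7398346, minus strand) lies between Pcmtd1 and Sntg1 with 65.7% GC, and its region had a fold of 16.9 and 14.6 in the controls and 17.9 and 17.1 in the mutants, so that the lowest mutant value lay just above the highest control value.

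Of 1005 microRNA hairpins in the RefSeq table, 104 lay in deserts and 34 of these had a region within 500 bp. No such share is given for hairpins outside deserts, so these counts do not set desert hairpins apart from others. The Mir344 family had 8 of the 11 desert hairpins with a region in all 4 libraries, so the mature 3′ products of several members are shown with the seed (bases 2 to 8), the part that pairs with targets, in capitals. miR-344-3p and miR-344c-3p share the seed GAUCUAG, and the last 2 are microRNAs of other deserts.
mmu-miR-344-3p: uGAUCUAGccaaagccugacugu
mmu-miR-344c-3p: uGAUCUAGucaaagccugacagu
mmu-miR-344d-3p: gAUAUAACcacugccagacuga
mmu-miR-344b-3p: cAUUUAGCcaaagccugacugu
mmu-miR-344f-3p: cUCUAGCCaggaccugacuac
mmu-miR-137-3p: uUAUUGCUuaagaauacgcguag
mmu-miR-1251-5p: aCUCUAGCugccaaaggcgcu

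The values behind these hairpins are given below, after the libraries. The libraries differed in depth and in the number of peaks. The lowest tag background, a measure of depth, came to 362 tags per 10 kb for control 1, 292 for control 2, 343 for mutant 1 and 404 for mutant 2, and the control lists had 165866 and 163016 summits against 192771 and 206114 for the mutants. The shallowest library, control 2, had the fewest summits, and the deepest, mutant 2, the most. Control 1 was deeper than mutant 1 and had fewer summits. The part of depth in the number of peaks was not tested. At gene ends (within 1 kb of either end of a protein-coding gene), of 8 motor neuron markers 8 and 7 had a region in controls and 6 and 7 in mutants, all 6 neural progenitor markers had one in every library, 5 and 5 of 5 glial markers did in controls and 4 and 5 in mutants, and 4 of 5 sensory neuron or neural crest markers did in every library. Of 5 muscle or mesoderm markers, 3 had a region in each library except mutant 1, with 4, and of 5 blood or endothelial markers 1 did in control 1 and none elsewhere. Progenitor and glial markers were therefore open at their ends in a motor neuron sort, and the part of other cells in the results below was not tested.

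Mutant 1 and mutant 2 stood apart from each other at sex-linked genes. Xist, the RNA that coats the inactive X chromosome, had a region near its start (chrX:103481407-103482451) with a −log10 p of 64.3 and 49.3 in the controls and 150 in mutant 2, and no peak in mutant 1. The Y-linked gene Uty had a highest −log10 p of 43.3 and 41.9 in the controls and 168 in mutant 1, and no peak in mutant 2. Ddx3y, Eif2s3y and Kdm5d, also Y-linked, likewise had regions in both controls and in mutant 1 and none in mutant 2. Regions on the X numbered 1692 and 1844 in controls and 1970 and 2549 in mutants. Results are therefore given without the sex chromosomes, or without a library, where they rest on them.

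Desert regions were more numerous in both mutants than in both controls. Control 1 had 14720 of them and control 2 had 15577, mutant 1 had 21284 and mutant 2 had 22640, which is 1.45 times as many in the mutant mean as in the control mean. As a share of each library's regions, deserts made up 13.4% and 14.6% in controls (mean 14.0% ± 0.831, SD, n = 2) and 17.3% and 16.9% in mutants (17.1% ± 0.306, SD, n = 2). The groups did not overlap, and the difference of 3.12 percentage points gave p = 0.333 in a two-sided exact permutation test over the 4 libraries, the smallest p that 2 against 2 libraries allow. On the autosomes alone the difference was 3.13 points.

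The ratio of mutant to control counts varied between classes of region. Regions at gene ends numbered 14999 and 14568 in controls and 14488 and 14955 in mutants, a ratio of 0.996, and their counts overlapped. Regions inside genes of over 500 kb, which resemble deserts in being far from most starts, numbered 7658 and 7930 in controls and 10488 and 11182 in mutants, a ratio of 1.39. Regions inside other genes and outside genes but within 100 kb of one gave ratios of 1.14 and 1.16. The mutant counts exceeded the control counts in deserts by more than in any of these 4 classes, and the exact permutation test over libraries could not go below 0.333 for any class.

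Desert regions were rare among the strongest regions and more frequent in mutants at every matched rank from 10000 down. Among the 1000 strongest regions of each library, 5 and 4 were in deserts in controls and 6 and 4 in mutants. Among the 25000 strongest, deserts made up 5.90% and 5.98% in controls and 8.24% and 8.54% in mutants. Among the 50000 strongest, the shares were 9.88% and 10.3% against 12.9% and 12.9%, and with 106783 regions taken from each, 13.4% and 14.6% against 17.0% and 16.6%. Taking an equal number from each library thus left both mutants above both controls.

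**Figure D1:**
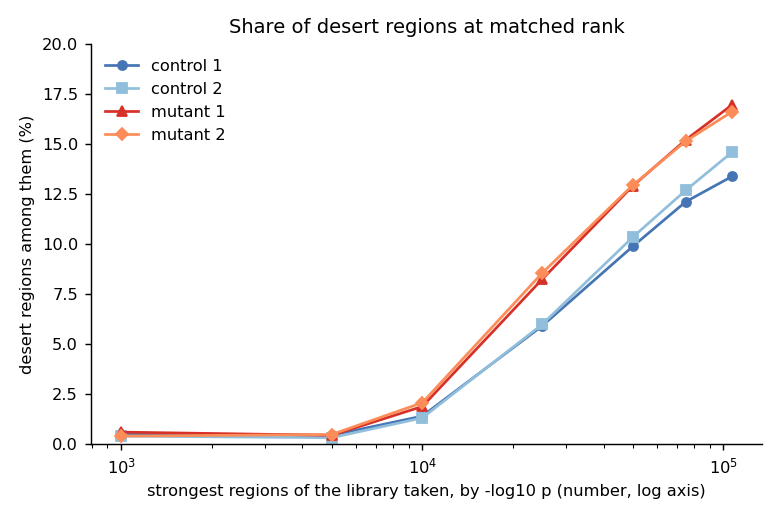
Share of desert regions (y axis, %) among the strongest regions of each library by −log10 p (x axis, number taken, log scale), with 1 line per library. The 2 mutant lines run together and above both control lines from 10000 regions on, reaching 17.0% and 16.6% against 13.4% and 14.6%.

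On each of the 20 chromosomes from 1 to 19 and X, both mutants had more desert regions, and a larger desert share, than both controls. Chromosome 3 had desert shares of 18.9% and 19.4% in controls, against 23.6% and 23.0%, and chromosome 17, with few desert regions, had 8.87% and 9.39% against 12.9% and 12.2%. The chromosomes share their libraries and are not independent of one another. Chromosome Y held 6 desert regions.

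By presence pattern, 8230 desert regions (24.4%) were in all 4 libraries, against 33% of all union regions, and 13715 (40.6%) were in a single library. Mutant-only regions numbered 5454 (16.2% of desert regions, against 10.3% of all union regions). Control-only regions numbered 1016 (3.01%, against 3.42%), and crossed regions 1371 (4.06%, against 4.41%). The share of crossed and of control-only regions was thus near that of the series, while the mutant-only share was above it. There were 5.37 mutant-only regions for each control-only region in deserts, 2.61 outside deserts, 4.53 inside genes of over 500 kb and 1.13 at gene ends. With the same number of intervals kept per library, the desert ratio was 3.20. It was 1.68 without control 1 and 1.96 without control 2, where a single list then defined a control-only region. Without mutant 1 and mutant 2 it was 6.73 and 6.18, where a single list then defined a mutant-only region.

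The pattern changed steadily with distance from genes. Of regions outside genes, those within 100 kb of one had 2.50 mutant-only regions per control-only region. The ratio was 3.99 at 100 to 150 kb, 5 at 150 to 250 kb, 5.67 at 250 to 500 kb, 7.60 at 500 to 1000 kb and 9.55 beyond 1000 kb, where 315 mutant-only and 33 control-only regions were counted. Over the same bands, the percentage of regions in all 4 libraries went from 34.1% to 18.2% and the mutant-only percentage from 9.24% to 21.3%. Beyond 1000 kb, the libraries held 518 and 580 regions in controls and 946 and 966 in mutants.

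**Figure D2:**
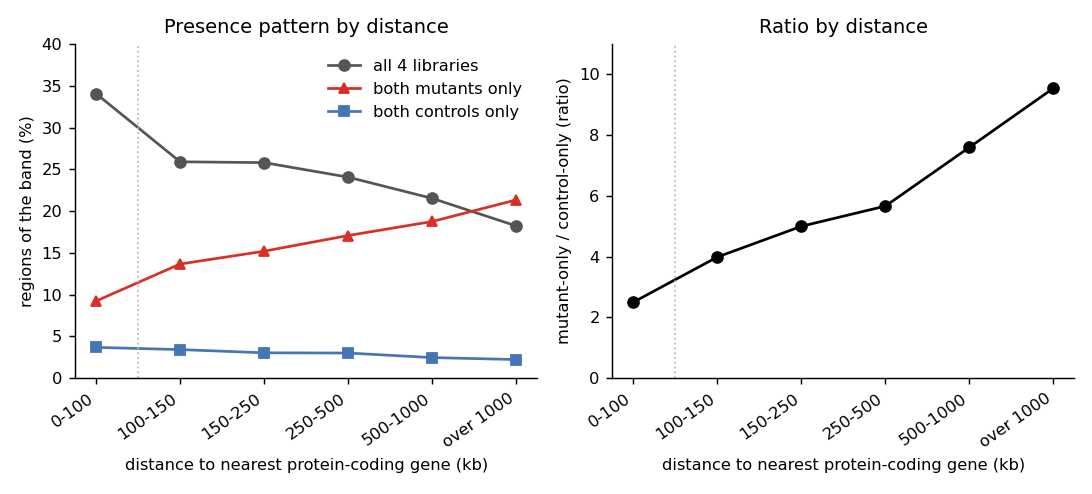
Left, percentage of the regions of each distance band (x axis, kb to the nearest protein-coding gene, genes themselves left out) that were in all 4 libraries, in both mutants only or in both controls only; right, the ratio of mutant-only to control-only regions. The dotted line is the 100 kb limit of the deserts, and the ratio goes from 2.50 within it to 9.55 beyond 1000 kb.

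Desert regions had a lower median −log10 p than regions outside deserts in every library, and were about as weak as regions inside genes of over 500 kb. The fold enrichment and −log10 p are the peak caller's own, so libraries were set side by side by percentile. This is the rank of a region's highest −log10 p among all summits of its library, from 0 for the weakest to 100. The percentile moves with the length of a list, and the mutant lists were longer. The controls had a median percentile of 41.8 and 36.5 for desert regions and the mutants 41.5 and 43.8, with overlapping groups (p = 0.667, two-sided exact permutation test). Gene ends had a median percentile of 92.4 and 92.5 in controls, against 93.2 and 93.4, and regions inside genes of over 500 kb had 38.6 and 36.5 against 39.8 and 43.8.

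Among the 8230 desert regions open in all 4 libraries, the controls had a median percentile of 57.3 and 57.4 and the mutants 65.7 and 67.5. The mutants were 9.21 points higher (p = 0.333, two-sided exact permutation test, the smallest possible), while shared regions outside deserts had medians of 72.9 and 71.7 against 73.5 and 75.4. In 46.6% of shared desert regions both mutant percentiles lay above both control percentiles, against 37.3% of all 65789 shared regions, and in 20.6% both lay below, against 23.7%. Their median summit held 29 and 26 tags in controls, against 36 and 47. The part of list length in these percentiles was not tested. The mutants thus also had higher medians in regions that every library held, on scales that move with list length or depth.

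Most regions of a single genotype were weak. Mutant-only desert regions had a median fold of 3.10 and 3.40, a median of 19 and 24 tags and a median width of 411 bp, whereas regions in all 4 libraries were 736.5 bp wide at the median. Control-only regions had a median fold of 3.09 and 2.97, with 20 and 16 tags. A −log10 q of 5 or more in every library that held them was reached by 1775 mutant-only regions (32.5%), by 195 control-only regions (19.2%) and by 53.9% of those in all 4. Outside deserts these shares were 28.8%, 22.1% and 71.0%, so the mutant-only share was the higher of the first 2 there as well. The part of depth in these shares was not tested. With all peaks below that q-value left out before merging, 3794 mutant-only and 660 control-only desert regions were found.

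The deserts themselves, taken as gaps of over 200 kb between protein-coding gene bodies, numbered 1671. Their interiors, which begin 100 kb from the gene at each side, covered 757 Mb or 28.5% of the span of the annotation, and held 44.5 regions per Mb against 87.3 in the rest. Regions were found in 1314 deserts, and 215 deserts held 50% of them. No region was found in 357 deserts, of which the longest 3, between Gm20897 and Gm21865, Gm21763 and Gm20910, and Gm21724 and Gm21843, were all on the Y and from 1459 to 1790 kb long. Unsequenced stretches inside a gap were not taken off, so densities are lower limits.

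Longer deserts held fewer regions per Mb. Gaps of 200 to 500 kb had 28.5 and 29.4 regions per Mb in controls and 36.8 and 40.9 in mutants, and gaps of over 2000 kb had 10.8 and 11.6 against 18.2 and 18.5. The ratio of mutant-only to control-only regions went from 4.32 in the first to 7.48 in the second. The longest desert, between the protocadherins Pcdh20 and Pcdh9, spanned 4542 kb and held 106 regions, with 42 and 39 in controls and 62 and 66 in mutants.

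Of 816 deserts with 10 or more regions, 603 (73.9%) had more regions in both mutants than in both controls, 14 (1.72%) the reverse, and 199 had overlapping counts. The background over these deserts and the 1324 stretches between deserts was 63% and 2.66%, and over the stretches alone 56.3% and 3.25%. In 720 of the 816 deserts mutant-only regions outnumbered control-only regions, in 39 control-only regions did, and in 57 they were equal. No such count is given for the stretches between deserts. Mutant-only regions also outnumbered control-only regions outside deserts, 15186 to 5809, so the 720 deserts do not by themselves set deserts apart.

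**Figure D3:**
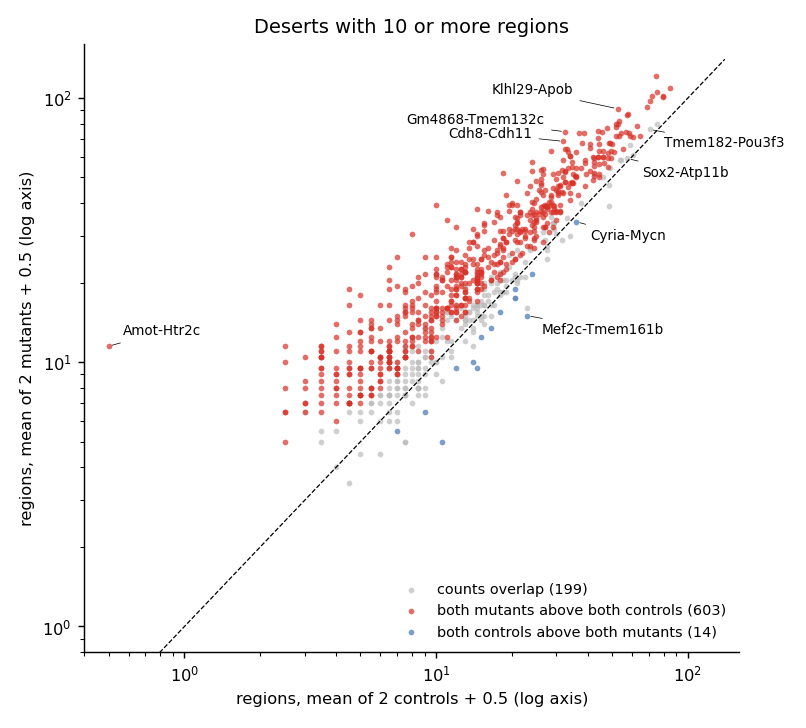
Each point is 1 of the 816 deserts with 10 or more regions, at its mean number of regions in the 2 controls (x axis) and in the 2 mutants (y axis), each plus 0.5, on log axes; the dashed line marks equal numbers. Red points (603) have both mutants above both controls and lie above the line, blue points (14) have the reverse, and grey points (199) overlap.

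The 10 deserts with the most regions held from 130 to 184 each, and in all 10 both mutants had more regions than both controls. The first, on chromosome 18 between Celf4, an RNA-binding protein of neurons, and Pik3c3, held 184 regions, with 75 and 73 in controls and 114 and 127 in mutants. The desert between Tmpo and Nedd1 on chromosome 10 was shorter and denser, with 158 regions at 121 per Mb, and its libraries held 76 and 82 against 94 and 109. Next to Zeb2, a transcription factor of neural crest and neurons, 156 regions lay in 3697 kb before Acvr2a, with 75 and 68 against 100 and 102. The deserts between Bcl11a and Fancl (152 regions), Tenm2 and Mat2b (150), Slc10a2 and Efnb2 (150), Klhl29 and Apob (146), Zfp608 and Gramd3 (143), Sall3 and Galr1 (139), and Gm15501 and Tenm4 (130) completed this group. Bcl11a, Zfp608 and Sall3 are transcription regulators, Tenm2 and Tenm4 are teneurins, adhesion proteins of synapses, and Efnb2 is an ephrin that guides axons.

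The most mutant-only regions, 36, lay between Klhl29 and Apob (chr12:5375683-7977628), with 4 control-only regions. This desert held 52 regions in each control and 91 and 90 in the mutants, so its groups were far apart. Next came Celf4-Pik3c3 with 34 and Tenm2-Mat2b with 30. Got2-Cdh8, next to a type II cadherin of the nervous system, had 28 mutant-only regions and 1 control-only region, and its counts were 40 and 54 against 79 and 74. Nudt12-Efna5, next to an ephrin, had 28 mutant-only and 5 control-only regions, with 36 and 37 against 77 and 69. Gm4868-Tmem132c had 27 mutant-only regions and 1 control-only region, with 31 and 33 against 64 and 84.

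Of the 6 deserts taken as those with the most control-only regions, 2 had overlapping counts and 4 had both mutants above both controls. The last places were tied, as given below. Tmem182-Pou3f3, next to a POU-domain factor of neurons, had 10 control-only and 13 mutant-only regions, and its libraries held 71 and 69 regions in controls and 68 and 83 in mutants, which overlap. Sox2-Atp11b, next to the progenitor factor Sox2, had 9 of each, with 56 and 58 against 55 and 62, which also overlap. Nr2f1-Arrdc3, next to a nuclear receptor of the nervous system, had 8 control-only and 14 mutant-only regions, with 56 and 61 against 69 and 74. Zeb2-Acvr2a (8), Tmpo-Nedd1 (7) and Slc10a2-Efnb2 (7) were also among these 6, each with at least 20 mutant-only regions, as they held many regions of every kind. Id2-Rnf144a also had 7 control-only regions, with 15 mutant-only regions and counts of 46 and 42 against 53 and 58. Gm5148-Ankrd50 had 7 control-only and 4 mutant-only regions, with 42 and 32 against 39 and 40, which overlap.

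The 14 deserts in which both controls had more regions than both mutants were 1.72% of those counted, below the background of 2.66%, and are given as values. Between Mef2c, a transcription factor of muscle and neurons, and Tmem161b, the controls had 21 and 24 regions and the mutants 15 and 14, with 5 control-only regions and 0 mutant-only. Cyria-Mycn, next to the growth regulator Mycn, had 35 and 36 against 33 and 34, a gap of 1 region. Etnk1-Sox5 had 22 and 25 against 21 and 21, and Sox9-Slc39a11, next to a factor of glia and cartilage, 20 and 20 against 18 and 19. Gli2-Inhbb, next to an effector of Hedgehog signalling, had 16 and 12 against 7 and 11. Bcl6-Lpp had 10 and 10 against 6 and 3, and Ackr3-Cops8 21 and 19 against 17 and 17.

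Deserts grouped by the genes that flank them differed in density. The 13 deserts next to Hox genes and Hox cofactors held 105 regions per Mb, the 29 next to neural progenitor factors 88.6, the 57 next to neuronal transcription factors 70.9 and the 29 next to motor neuron identity and column genes 59.6, against 44.5 over all 1671 deserts. Axon guidance genes flanked 33 deserts with 49.2 regions per Mb. Adhesion genes lay below the average, with 33.7 in 65 deserts next to other adhesion and synaptic organisers and 25.8 in 33 deserts next to cadherins, and the 19 deserts next to olfactory, vomeronasal and pheromone receptors held 15.7, with 28 of their 65 regions in the desert that holds Firre, described below. A desert can count in several lists, and the lists were not compared by a test.

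The presence patterns of these groups went in another order. Cadherin deserts had 325 mutant-only and 30 control-only regions, a ratio of 10.8, with 9.36 and 9.97 regions per Mb in controls and 17.3 and 16.9 in mutants. Deserts next to other adhesion genes had a ratio of 8.02. Hox and cofactor deserts had 109 mutant-only and 18 control-only regions, a ratio of 6.06, and progenitor deserts 112 and 48, a ratio of 2.33, with 46.2 and 48.8 regions per Mb in controls against 52.3 and 58.1 in mutants. Over all deserts the ratio was 5.40. Cadherin and adhesion deserts were long, and the ratio also went with the length of a desert and with its density. Among deserts with an interior of 300 kb or more, split into 4 equal groups by density, the ratio was 8.32, 9.72, 5.26 and 4.20 from the sparsest group to the densest, and the part of length and density in the differences between lists was not tested.

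**Figure D4:**
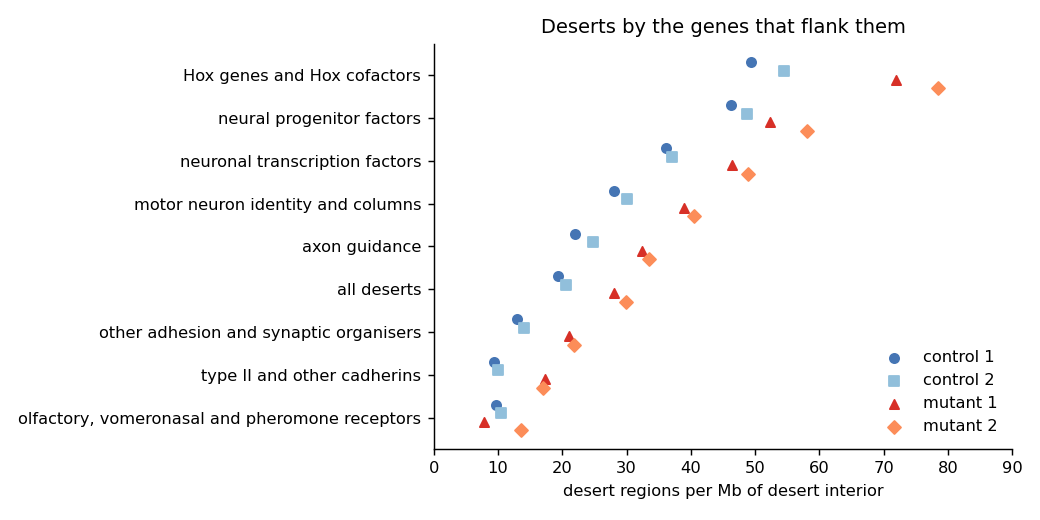
Desert regions per Mb of desert interior (x axis) in each library, for deserts flanked by a gene of each list and for all deserts; the points are single libraries with no error bar. Both mutant points lie right of both control points in every list except the olfactory, vomeronasal and pheromone receptors, where mutant 1 (7.74) lies below both controls (9.68 and 10.4).

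Within the Hox and cofactor list, the deserts with most regions included Zfp516-Tshz1 (98 regions, on chromosome 18) and Meis1-Spred2 (68). Meis1 encodes a homeodomain partner with which Hox proteins bind DNA. Meis1-Spred2 had 32 and 35 against 39 and 47, with 9 mutant-only and 2 control-only regions. The Hox clusters themselves have few gaps of this length: of the gaps at their ends, that between Evx1 and Hibadh was 228 kb long and held 4 regions, with 2 and 2 in controls and 3 and 4 in mutants. The other 7 gaps, from 28.1 kb to 199 kb, were too short to hold a desert region. Only the gaps that touch a cluster are counted here. Beyond Mtx2, the gene next to the Hoxd cluster, the desert Mtx2-Gm50595 held 60 regions at 160 per Mb. Its libraries held 30 and 36 in controls and 42 and 49 in mutants, with 9 mutant-only and 2 control-only regions.

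Among motor neuron genes, Isl1, a LIM-homeodomain factor needed for motor neurons to form, lies between 2 deserts. That between Itga1 and Isl1 held 51 regions, with 20 and 25 in controls and 37 and 34 in mutants, 8 mutant-only and 0 control-only. That between Isl1 and Parp8 held 22, with 10 and 13 against 13 and 15, where mutant 1 and control 2 were equal. Lcorl-Slit2, next to a secreted guidance cue, held 108 regions, with 49 and 48 against 67 and 67. Among progenitor deserts, Adamts16-Irx1 had 53 and 67 against 54 and 67 and Id2-Rnf144a 46 and 42 against 53 and 58. Among cadherin deserts, Cdh8-Cdh11 had 29 and 34 regions in controls and 73 and 63 in mutants, with 24 mutant-only regions and 1 control-only region.

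Among adhesion, axon guidance and long deserts, the following 4 had both mutants above both controls. Adgrl2-Adgrl4, between a pair of adhesion receptors, had 48 and 55 against 71 and 83. Slc4a3-Epha4, next to a receptor for ephrins used by limb motor axons, had 54 and 61 against 82 and 91. Epha7-Map3k7 had 52 and 64 against 69 and 77. Olfm4-Pcdh17, the third longest desert, had 31 and 35 against 63 and 61, with 24 mutant-only regions and 1 control-only region.

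Single regions gave the extremes. The strongest desert region in all 4 libraries lay between Pcdh7 and G6pd2 (chr5:60042697-60043161), 1766 kb from a gene, with a fold of 48.2 and 48.7 in controls and 51.2 and 49.4 in mutants. Next were regions in Flrt2-Galc (chr12:97061364-97061861, fold 28.0, 28.7, 29.4 and 29.5) and Ptprd-Tyrp1 (chr4:80002692-80003318, fold 30.3, 31.6, 32.2 and 33.0). Those values are far above the 90th percentile of fold in deserts, which was from 7.93 to 10.1. The regions were not set against a list of sites prone to false signal, so their nature was not tested. Eipr1-Myt1l, next to a factor of neuronal fate, had a region with a fold of 25.6, 23.4, 25.1 and 27.3. A region in Nxph1-Ndufa4 (chr6:9889875-9890229) had a fold of 33.2 and 33.9 in controls and 36.0 and 36.3 in mutants.

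The strongest mutant-only region lay between Ipmk and Zwint (chr10:72507378-72508088), 147 kb from a gene. It had a fold of 15.0 and 18.8 and a summit of 98 and 153 tags in the mutants, with no peak in either control. In Grin3a-Cylc2 (chr4:50347160-50347785), next to a subunit of the NMDA-type glutamate receptor, the fold was 14.8 and 20.4 with 90 and 147 tags. Gask1b-Gria2, next to a subunit of the AMPA-type receptor, had a region of fold 13.8 and 17.1 (chr3:80323232-80324047). Csmd1-Mcph1 (13.5 and 14.6), Cbln2-Socs6 (14.7 and 20.3) and Pik3r1-Cd180 (13.8 and 15.9) held the others of the 6. All 6 were above the 87th percentile of their library.

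The strongest control-only regions ranked below these by the lower of their 2 percentiles. They were the top of 1016 regions, and the mutant-only ones the top of 5454. The region in Ubash3b-Gm40514 (chr9:41429649-41430427) had a fold of 9.55 and 9.28 with 67 and 49 tags, at the percentiles 82.3 and 79.5. It lies in the desert that holds Mir100, Mirlet7a-2 and Mir125b-1. The region in Wdr11-Fgfr2 (chr7:129801398-129801946), next to a receptor for fibroblast growth factors, had a fold of 9.02 and 8.36. That in Ccer1-Atp2b1 (chr10:98748958-98749846) had a fold of 14.6 in control 1 and 7.61 in control 2. Sema6d-Slc24a5, Nudt4-Eea1 (the Gm47708 start shown above) and Nr5a2-Ptprc held the other 3, with folds from 6.90 to 8.04.

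At the Mir344 hairpins, which lie on the minus strand of chromosome 7 in the desert between Gm51483 and Ndn, 12 of 13 copies had a region within 500 bp and 8 had one in all 4 libraries. Mir344c (chr7:61837311-61837402) had a fold of 19.1 and 18.0 in controls and 21.6 and 24.1 in mutants. Mir344 and Mir344-2, which share the miR-344-3p sequence above, had 19.7 and 18.5 against 21.0 and 20.8, and 19.0 and 18.4 against 17.0 and 19.0. Mir344f had 14.3 and 14.7 against 17.1 and 20.3. The copies are alike in sequence, so reads could have been placed at the wrong copy.

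Other members of the family were weak or differed between groups. The region at Mir344b (chr7:61790519-61790581) was at the percentiles 15.3 and 21.5 in controls and 76.6 and 72.4 in mutants, with a fold of 2.49 and 2.79 against 8.31 and 7.79. Mir344i went the other way, at 55.2 and 59.1 in controls against 28.5 and 15.0 in mutants. The 3 copies of Mir344d share one mature 3′ sequence, and only Mir344d-3 had a region in all 4 libraries, with a fold of 4.51, 3.71, 5.54 and 5.67. Mir344h-2 had a mutant-only region and Mir344e had none within 500 bp. These copies were picked out after their values were seen.

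Mir137, a microRNA of neurons in the desert between Snx7 and Dpyd (chr3:118433857-118433929), had a region in all 4 libraries with a fold of 3.81 and 4.87 in controls and 3.93 and 3.96 in mutants. Mir1251, in the Tmpo-Nedd1 desert (chr10:92137140-92137223), had a fold of 2.64 and 2.41 in controls and 5.36 and 7.66 in mutants, at the percentiles 21.0 and 9.28 against 66.5 and 74.9. Mir802 (fold 3.11 and 3.34), Mir3072 (2.49 and 1.96) and Mir7214 (2.95 and 3.90) had control-only regions, and Mir6350 (3.10 and 2.27) a mutant-only one, all of them weak. The imprinted cluster between Rtl1 and Dio3 held 37 of the 104 desert hairpins, of which 13 had a region and 0 one in all 4 libraries.

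A single library decided the pattern in the desert between Olfr1324 and Stk26 on the X (chrX:50426495-50841173). It held 22 and 23 regions in controls, 6 in mutant 1 and 25 in mutant 2. The lncRNA gene Firre, whose RNA acts in nuclear architecture and which is transcribed from the minus strand, lies in this desert (chrX:50563120-50635321). Its body held 15 and 15 regions in controls, 0 in mutant 1 and 17 in mutant 2. From chrX:50549833 to 50623450, a stretch of 73.6 kb, 16 regions were present in both controls and in mutant 2 and absent from mutant 1.

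The start of Firre itself was open in every library: its region (chrX:50634958-50635961) had a −log10 p of 162 and 75.9 in controls and 119 and 185 in mutants. Within the stretch, the highest −log10 p was 57.5 and 57.0 in controls and 110 in mutant 2. Of the 465 desert regions missing from mutant 1 alone, 9 of the 10 strongest lay in it. The same library lacked the Xist region given above, and it was the library with the strongest regions at Y-linked genes. Whether the sex of the embryos accounts for this stretch was not tested. A comparison of genotypes at Firre therefore rests on mutant 1, and the gene body held 15, 15 and 17 regions in the other libraries.

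**Figure D5:**
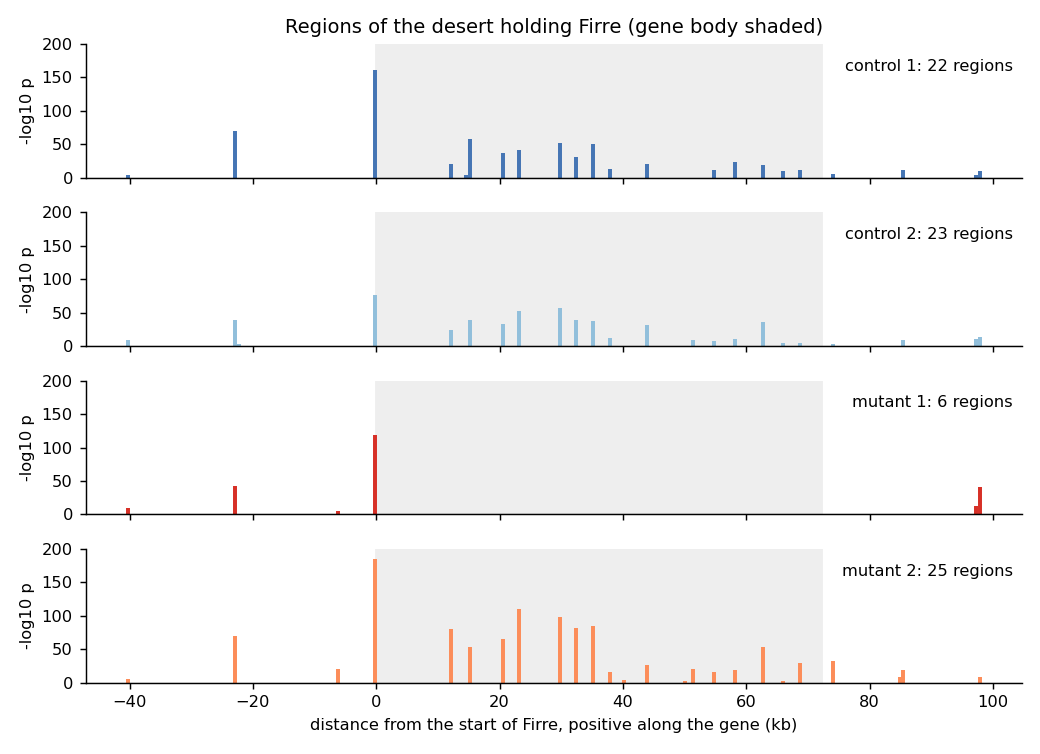
−log10 p (y axis) of each region of the desert that holds Firre, by distance from the gene's start in kb (x axis, positive along the gene), with 1 panel per library and the gene body shaded. The region at 0 kb is present in all 4 panels, and the body is empty in mutant 1 but holds 15, 15 and 17 regions in the others.

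Another desert of the X, between Amot and Htr2c, a serotonin receptor, held 0 regions in either control, 7 in mutant 1 and 15 in mutant 2. A desert on chromosome 12 between Adam6a and Zfp386 (chr12:113546415-116047713) is the part of the immunoglobulin heavy-chain locus that holds the variable segments, which the annotation does not count as protein-coding genes. Its 109 regions went with no genotype: 63 and 33 in controls, 54 and 23 in mutants, with 18 crossed and 69 in a single library, and control 1 shared 10 regions with mutant 1 alone. Mmut-Ptchd4 had 4 regions in control 1 and 11 in control 2, against 27 and 33 in mutants. These deserts were picked out after their values were seen.

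Of all desert regions, 16.9% lay inside the body of a lncRNA gene, 0.557% in a pseudogene and 81.9% in no annotated gene. Those inside lncRNA genes were in all 4 libraries in 28.3% of cases and mutant-only in 12.7%, and those outside every annotated gene in 23.7% and 17.0%. With the bodies of all annotated genes, noncoding ones included, used for the 100 kb rule, 6499 regions remained. Of these 1244 were mutant-only and 161 control-only, and the share of desert regions per library differed by 0.903 percentage points between genotypes.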

How the data were processed

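The authors deposited 1 peak list per library in the MACS2 narrowPeak form. Per the submitters' processing notes, the tools were FastQC 0.11.9, Bowtie2 2.3.4.3, SAMtools 1.9 and MACS2 2.2.4 with the build mm10; parameters, and any shift of reads for Tn5, are not given in the sources used here. In the deposited lists, the fold is a ratio of tags to background at the summit, and −log10 of p and of q are the caller's own. The deposited score is 10 times −log10 p, capped. The other deposited columns are base positions. The lowest deposited −log10 p was 2, a permissive limit.

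Depth is not stated, so tags and background at summits were recovered from fold and p; 100% of recoverable summits gave a whole number within 0.001, and at a tag extension of 150 bp the lowest background was 292 to 404 tags per 10 kb. Peak intervals on assembled chromosomes were merged, and distances were taken to 21779 protein-coding bodies of a RefSeq table (GRCm38.p6, the coordinates of mm10); rows ending below 3 Mb outside the Y, which belong to unplaced scaffolds, were left out. Coordinates are 1-based. Percentiles rank −log10 p among all summits of a library. Libraries were compared by two-sided exact permutation tests; patterns, deserts and lists have no test. Scripts (Python 3.11.15, pandas 2.3.3, scipy 1.17.1) were tested on simulated lists. The replicate numbers are not tied to a shared litter or day by the labels, so they do not pair libraries.

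The members and gene lists were chosen with earlier results of these data known. Deserts named were the 10 with most regions, the 6 with most mutant-only and most control-only regions, 3 per list, the 3 longest with and without regions, and those at Isl1 and the Hox clusters; regions named were the 6 of each kind with the highest weakest percentile. Other items were chosen after their values were seen. Thresholds of distance, q-value, overlap, list length and each left-out library were varied. Items withheld from this text are not reported here.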

Additional observations from a re-analysis of the deposited data

How the results depend on the processing

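In 13 alternatives, the share of desert regions per library stayed higher in mutants, by 0.903 to 3.89 percentage points with all 4 libraries kept and by 2.51 to 3.71 points with 1 library left out. The percentile difference of shared desert regions ranged from 5.45 to 13.3 points with all libraries and from 7.42 to 11.9 with 1 left out. In every setting the percentiles were those of the full lists. The settings of q-value and list length thus changed which regions were shared and not the percentile scale. They cannot show how this difference depends on list length. With the replicate block, pairing libraries of the same number, the share differed by 3.93 and 2.32 points (mean 3.12, p = 0.5 by an exact sign-flip permutation, the smallest possible); the block was fitted for this share alone.

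The number of desert regions, 33754, became 20222 beyond 200 kb, 16447 at a −log10 q of 5 or more and 6499 with all annotated genes, and 29570 to 31375 with 1 library left out. Mutant-only regions, 5454, became 3544, 3794 and 1244 under the same settings, and 6705 to 10428 with 1 library left out. Control-only regions, 1016, became 566, 660 and 161, and 1502 to 3992 with 1 library left out. The ratio of the last 2, 5.37, became 3.20 with the same number of intervals per library and 1.68 to 6.73 with 1 library left out. Leaving out a control makes control-only regions need 1 library instead of 2, which acts to lower the ratio by construction. Leaving out a mutant does the same for mutant-only regions, which acts to raise it by construction. The mutant-only share of desert over that of other regions, 1.76, ranged from 1.44 to 1.91 over all alternatives.

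Of 18 named deserts, 15 kept their direction in every setting that gave a value. In Isl1-Parp8 the difference became 0 at a −log10 q of 5 or more. In Sox2-Atp11b, the mutant mean minus the control mean, which was above 0, became −1 at a −log10 q of 2 or more, −0.5 beyond 200 kb, −7.5 with the same number of intervals, −0.5 without control 1, and −2 without mutant 2 to 6 without mutant 1 over the left-out libraries. In Tmem182-Pou3f3 it became −2.5 with the same number of intervals, and −2 without mutant 2 to 14 without mutant 1 over the left-out libraries.

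The median mutant-only region rested on 19 and 24 tags, so absence from a library means that no peak passed there and not that the chromatin was closed. Libraries differed in depth, and with 2 per group the exact permutation test used here cannot reach 0.05. No genome sequence was used, so base composition and mappability of the regions were not tested.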

Other observations

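Desert regions were clustered unevenly within deserts. The densest 100 kb of any desert, in Prok2-Rybp on chromosome 6, next to the Polycomb partner Rybp, held 31 regions, with 19 and 18 in controls against 15 and 19. Next was a stretch between Slc7a11 and Noct with 27 regions (18 and 15 against 18 and 15). Between Sp4 and Sp8, 25 regions lay in 100 kb, with 12 and 12 against 11 and 8, and between Enc1 and Arhgef28 23 regions, with 9 and 12 against 19 and 17. The densest stretches thus did not share a direction.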
